A study of Mus musculus with 13 samples.

Results

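The regions described here are broad stretches of K27 (trimethylation of lysine 27 on histone H3) that were called in neural stem cells (NSCs) and had no K27 peak at the same place in oligodendrocyte progenitor cells (OPCs) or newly formed oligodendrocytes (NFOs). They were chosen from the called NSC K27 peaks at least 1000 bp wide, as those that shared not even 1 bp with a called OPC or NFO K27 peak. Of 36069 listed NSC K27 peaks, 7101 were at least 1000 bp wide (wide domains), and 4678 of these (65.9%) met the rule and are called lost domains below. The word lost refers to the lists of called peaks only. Of the other wide domains, 1180 had a K27 peak in both later cell types (kept domains), 1196 in OPCs alone and 47 in NFOs alone.

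The study followed the oligodendrocyte lineage in mouse with ChIP-Seq, in which an antibody pulls down chromatin and the DNA recovered is sequenced. K27 and K4 (trimethylation of lysine 4 on histone H3) were profiled in NSCs, OPCs and NFOs, giving 6 libraries, and the transcription factor OLIG2 in OPCs and NFOs, giving the 2 libraries used here. The NSCs were a product of R&D Systems, derived from E14.5 cortex of CD-1 mice and grown with EGF and FGF, although their strain label reads C57BL/6. OPCs and NFOs were immunopanned from postnatal day 7 brain of C57BL/6 mice of both sexes, on PDGFRα and GalC antibody plates respectively, after microglia and endothelial cells had been removed on a BSL-1 lectin plate. The labels name no transgene, deletion or treatment in any group. Each cell type and mark had 1 library, so no difference between stages has a replicate check and no test between stages was possible. Culture (described for the NSCs alone), strain, age and single-end against paired-end reads separate the NSCs from both later cell types and cannot be told apart from the stage. The lists give no read depth, and in bulk samples fewer cells carrying a mark and less of it per cell cannot be told apart.

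K27 is laid down by Polycomb repressive complex 2 (PRC2), whose catalytic subunit is EZH2, and in vertebrates it covers the promoters of silent developmental regulators such as the Hox genes. K4 marks the promoters of active genes and, together with K27, the bivalent promoters of genes held ready for a later choice of fate. OLIG2 is a basic helix-loop-helix factor that binds E-boxes, short motifs with the letters CANNTG, and is required to make the oligodendrocyte lineage. Lost domains are therefore described below by their genes, by K4 at the same place in each stage, and by OLIG2 in OPCs and NFOs.

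The sequence shared by most lost domains was a run of a single base, A or T, close to the edge of the domain. Ends of a pair of domains are shown because the rest of the description turns on this feature. One lies in the first intron of Ugt8a, which encodes the enzyme that makes galactosylceramide, the myelin lipid recognised by the GalC antibody of the NFO plate. The other lies 11.5 kb from the nearest TSS (transcription start site), that of Evi5l, and was the lost domain of highest fold enrichment with a run in the outer 200 bases of both ends and no exon there. All sequences are read 5′ to 3′ from the GRCm38 (mm10) genome, on the strand stated, and capitals mark runs of at least 15 A or T.
Ugt8a domain, low end, chr3:125935761-125935960, plus strand: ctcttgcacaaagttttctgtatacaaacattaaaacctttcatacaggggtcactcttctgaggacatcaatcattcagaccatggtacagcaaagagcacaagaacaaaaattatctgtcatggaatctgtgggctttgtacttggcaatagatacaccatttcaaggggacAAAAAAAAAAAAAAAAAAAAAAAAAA
Domain near Evi5l, low end, chr8:4153800-4153999, plus strand: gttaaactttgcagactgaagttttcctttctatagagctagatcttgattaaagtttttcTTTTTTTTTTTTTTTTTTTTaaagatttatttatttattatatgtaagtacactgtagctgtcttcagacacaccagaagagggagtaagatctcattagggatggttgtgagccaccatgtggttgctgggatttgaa
Domain near Evi5l, high end, chr8:4154879-4155078, plus strand: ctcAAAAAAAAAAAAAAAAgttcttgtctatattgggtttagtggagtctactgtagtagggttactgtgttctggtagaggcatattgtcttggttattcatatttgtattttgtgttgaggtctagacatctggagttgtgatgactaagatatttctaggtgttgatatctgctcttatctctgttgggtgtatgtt

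In the Ugt8a domain a run of A closed the 200 bases shown from its low end. In the domain near Evi5l the low end held a run of T and the high end a run of A. OLIG2 peaks on lost domains are shown next, chosen among the strongest by fold enrichment in each cell type, with the peak of the Ugt8a domain added. The domain with the Helz peak overlaps an exon. A stronger OPC peak in Dnm2, 17.7 against 16.1 for Helz, held a run of T and is not shown. Here capitals mark both the runs of at least 15 A or T and any E-box CANNTG, which reads the same on both strands.
NFO OLIG2 peak in the Ugt8a domain, chr3:125935944-125936179, plus strand: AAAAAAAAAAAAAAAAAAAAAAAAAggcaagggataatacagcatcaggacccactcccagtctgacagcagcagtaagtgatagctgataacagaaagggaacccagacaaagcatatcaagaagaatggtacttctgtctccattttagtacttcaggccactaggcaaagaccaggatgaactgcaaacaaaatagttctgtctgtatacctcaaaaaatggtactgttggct
OPC OLIG2 peak in Helz, chr11:107556854-107557083, plus strand: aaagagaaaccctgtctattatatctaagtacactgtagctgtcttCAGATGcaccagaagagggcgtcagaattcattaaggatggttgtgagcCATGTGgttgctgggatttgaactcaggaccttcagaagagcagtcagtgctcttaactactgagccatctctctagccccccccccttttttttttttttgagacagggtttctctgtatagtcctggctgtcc
NFO OLIG2 peak near Gm28563, chr5:118327223-118327458, plus strand: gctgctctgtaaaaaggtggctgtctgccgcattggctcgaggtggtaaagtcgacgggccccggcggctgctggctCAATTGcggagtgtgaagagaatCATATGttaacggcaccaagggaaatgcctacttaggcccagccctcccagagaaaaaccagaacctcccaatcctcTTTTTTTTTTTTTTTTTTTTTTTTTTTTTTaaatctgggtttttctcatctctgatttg
NFO OLIG2 peak near Gm38025, chr3:31452964-31453199, plus strand: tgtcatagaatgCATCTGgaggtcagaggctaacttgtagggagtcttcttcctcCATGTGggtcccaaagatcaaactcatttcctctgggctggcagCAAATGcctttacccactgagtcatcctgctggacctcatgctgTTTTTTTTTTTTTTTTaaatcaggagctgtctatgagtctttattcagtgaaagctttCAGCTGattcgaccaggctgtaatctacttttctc

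The Ugt8a peak began in a run of A and contained no E-box. The Helz peak held a run of T too short to count and 2 E-boxes, 1 of them CAGATG. The peaks near Gm28563 and Gm38025 held E-boxes and a run of T in the same window. Both promoters below, from the RefSeq promoter table of GRCm38.p6 (250 bases before the TSS to 50 after it), belong to genes whose domains are described further on, and capitals mark CG pairs.
Promoter of Ugt8a, chr3:125938603-125938902, minus strand: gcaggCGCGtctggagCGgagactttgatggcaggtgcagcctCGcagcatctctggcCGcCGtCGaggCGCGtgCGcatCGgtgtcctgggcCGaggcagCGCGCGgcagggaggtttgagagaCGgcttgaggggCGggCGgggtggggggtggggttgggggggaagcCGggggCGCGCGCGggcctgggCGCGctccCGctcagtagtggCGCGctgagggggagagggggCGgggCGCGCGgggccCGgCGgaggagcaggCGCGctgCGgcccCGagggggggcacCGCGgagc
Promoter of Cntn2, chr1:132542891-132543190, minus strand: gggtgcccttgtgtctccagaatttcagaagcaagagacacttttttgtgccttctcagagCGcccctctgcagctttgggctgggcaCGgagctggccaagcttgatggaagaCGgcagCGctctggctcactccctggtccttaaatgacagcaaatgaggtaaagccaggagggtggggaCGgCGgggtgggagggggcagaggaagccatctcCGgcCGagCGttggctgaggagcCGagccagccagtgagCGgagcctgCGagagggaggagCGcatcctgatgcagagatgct

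The Ugt8a promoter held 40 CG pairs and lay outside the lost domain. The gene is on the minus strand, so the domain, at lower coordinates, lies on the transcribed side of this TSS. The Cntn2 promoter held 13 CG pairs and lay inside its domain.

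The cell types and marks were checked against genes fixed as markers. K27 peaks lay within 2 kb of a TSS of 39 of 39 Hox genes in each of the 3 cell types. Of 8 NSC markers, including Sox2 and Nes, K4 peaks lay at 8, 8 and 6 in NSCs, OPCs and NFOs. Of 6 OPC markers, including Pdgfra and Cspg4, 6 had one in OPCs, 5 in NSCs and 5 in NFOs, so K4 at these markers did not separate the cell types. Of 7 NFO markers, K4 lay at only 1 (Cnp) in NFOs, but at 2 (Cnp and Mbp) in NSCs and in OPCs. Among these markers, Opalin had a K27 peak in NFOs and Enpp6 had one in NSCs and OPCs. K4 at these markers therefore did not bear out the NFO label. Of 6 microglial markers, 0 had K4 in NFOs and 1 (Csf1r) in OPCs, and of 5 endothelial markers 1 (Flt1) in each cell type. Of 5 astrocyte markers, K4 lay at 3 in NSCs, 2 in OPCs and 1 in NFOs. Neuronal genes with K4 numbered 5 of 6 in NSCs and OPCs and 4 of 6 in NFOs. The part of other cells in the results was not tested. The antibody labels of the 6 histone libraries name the other mark than the titles do. The titles were used: 51.4%, 75.1% and 50.5% of the peaks titled K4 lay within 2 kb of a TSS in NSCs, OPCs and NFOs, against 12.4%, 20.3% and 27.7% of those titled K27.

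Lost domains were the narrow and weakly enriched end of the NSC list. Their median width was 1256 bp (interquartile range 1123 to 1422 bp, largest 8120 bp), while kept domains had a median of 2268 bp and reached 117916 bp. Fold enrichment of K27 over the input, as the peak caller gave it, had a median of 3.23 on lost domains (range 1.48 to 8.81) and 4.24 on kept domains. The study's filter for histone peaks, a fold enrichment over 3.5 at an FDR under 0.05, was passed by 1511 lost domains (32.3%) and by 74.4% of kept domains. Width and fold enrichment belong to the library that chose the domains, so these values describe the choice and support nothing.

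The share lost fell steeply with width. It was 77.1% (3825 of 4962) for wide domains of 1000 to 1500 bp, 55.5% from 1500 to 2000 bp and 36.7% from 2000 to 4000 bp. From 4000 to 8000 bp 14 of 216 (6.48%) were lost, and of the 177 that were 8000 bp or wider only 1 (0.565%) was. A wider domain can meet a later peak at more places, so the rule itself builds in some fall with width. By fold enrichment the share lost was 81.6% below 3, 70.9% from 3 to 4, 48.2% from 4 to 5 and 20.6% from 5 to 6. At the width limit itself, 8 lost domains were exactly 1000 bp wide, among them chr9:7727573-7728572 with a fold enrichment of 3.32 and chr4:34926475-34927474 with 2.77. Just outside it, peaks just under that width with no later K27 peak included chr19:6142428-6143426 with 2.75 and chr19:31643083-31644081 with 3.37. There were 958 members within 100 bp above the limit and 928 peaks within 100 bp below it that also had no later K27 peak, so the limit cuts through a continuous range of widths.

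**Figure D1:**
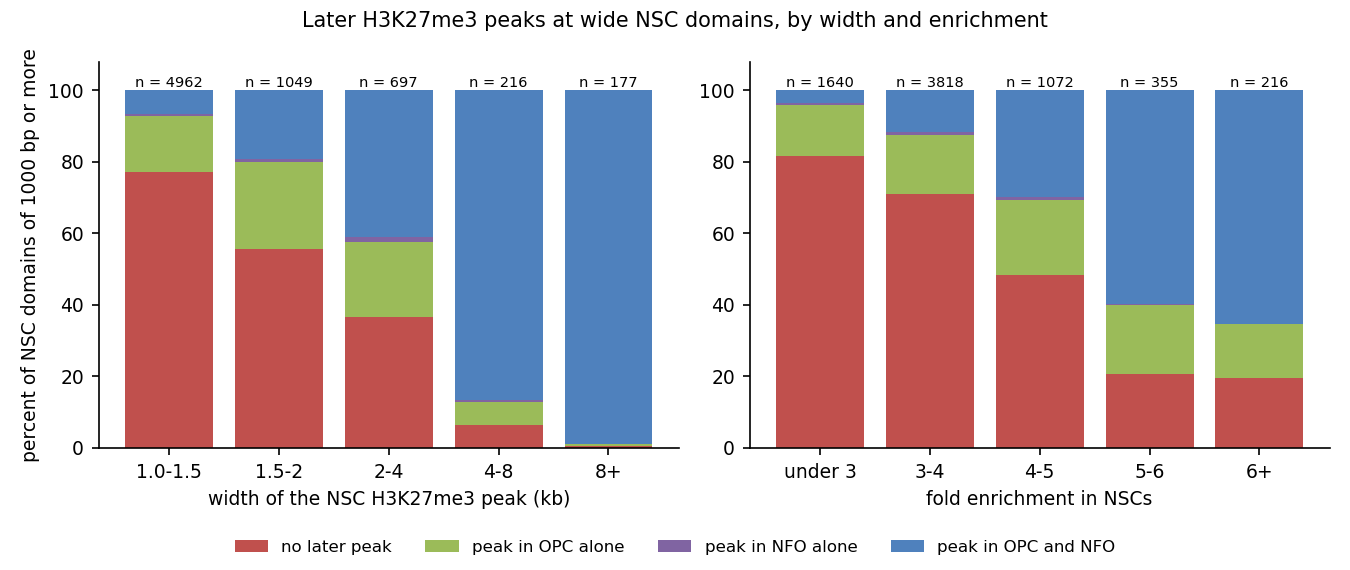
Fate of the 7101 wide NSC K27 domains by width class and by fold enrichment class, as the percent (y axis, from 0) with a later K27 peak in both cell types, in 1 or in none. The share with no later peak falls from 77.1% at 1000 to 1500 bp to 0.565% at 8000 bp or more, and the overlap rule itself builds in some of this fall.

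A/T runs were present in most lost domains and rare beside them. A run of at least 15 A or T lay in 3532 of the 4666 lost domains on assembled chromosomes (75.7%, 95% interval 74.4 to 76.9%). Windows of the same width placed 10 kb downstream and upstream held one in 10.0% and 10.6%. Intervals here and below are exact (Clopper-Pearson) and cover counting error only. Counting runs of 10 or more, the share was 94.4% against 27.6% downstream, and for runs of 20 or more it was 40.4% against 4.65%. The sequence was examined only after the peak lists had been seen, and runs of 15 bases were chosen then.

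These runs were not particular to lost domains. They lay in 83.8% of wide domains with a K27 peak in OPCs alone, in 56.2% of kept domains and in 68.2% of all listed NSC K27 peaks. At matched widths of 1000 to 1500 bp, 74.6% of lost and 52.1% of kept domains held a run, against 8.80% and 12.7% of windows 10 kb downstream. OPC and NFO K27 peaks of that width held a run in 23.5% and 14.1%, against 10.3% and 7.28% downstream. Among lost domains with a fold enrichment of 5 or more, 67.0% (77 of 115) still held one.

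The runs sat near the edges of the domains. In 78.9% of lost domains a run lay within 250 bp of at least 1 end, and in 33.9% within 250 bp of both ends. At places 10 kb downstream these shares were 7.57% and 0.214%. Among domains of 1000 to 1500 bp, a run lay near at least 1 end in 79.4% of lost and 48.2% of kept domains, and in 26.9% of OPC and 17.5% of NFO K27 peaks. In lost domains of 1000 to 1500 bp, the 100 bp steps on either side of the centre held a run in 0.707% and 0.812%, while the pair of steps around 500 bp out on each side held one in 19.7 to 21.9%. The part these runs play in the calling of lost domains, or in the lack of a later peak, was not tested.

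**Figure D2:**
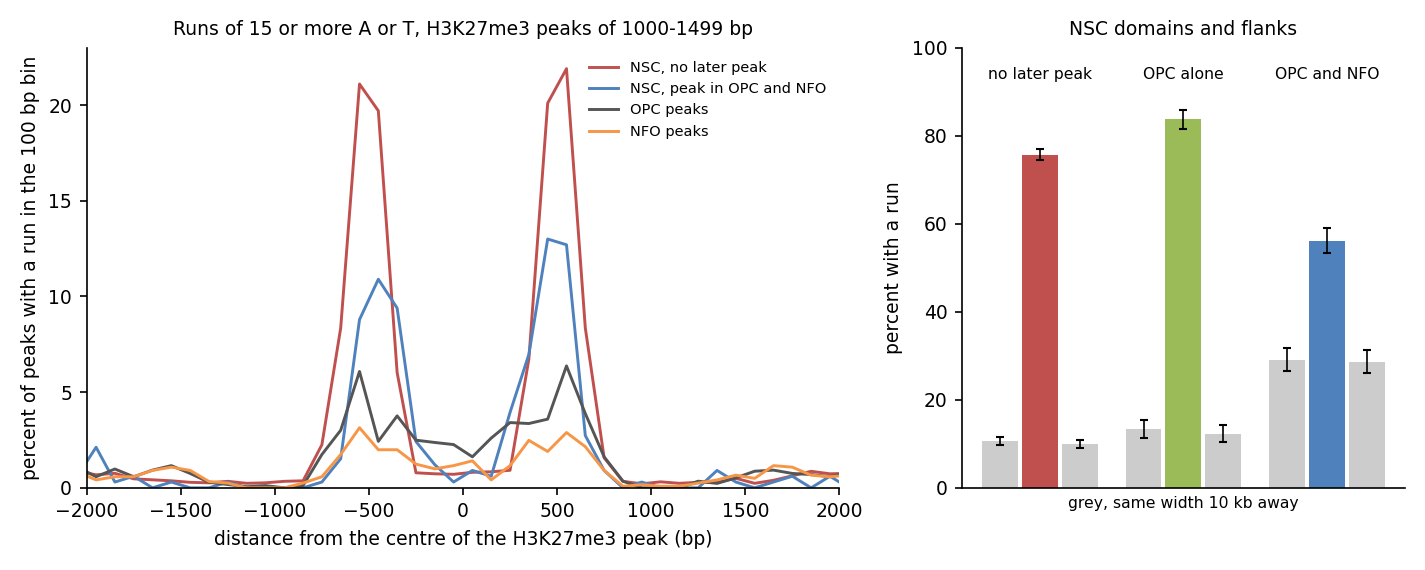
Left, percent of K27 peaks of 1000 to 1500 bp with a run of at least 15 A or T in each 100 bp step (y axis) against distance from the centre in bp (x axis), for lost (no later peak) and kept NSC domains and for OPC and NFO peaks; right, percent of NSC domains of any width with a run (coloured bars) and of windows 10 kb away (grey), with exact 95% intervals. Lost domains reach 21.9% of domains per step on the high side of the centre and 21.1% on the low side, near the domain ends, and 75.7% of them hold a run.

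The 1134 lost domains without such a run lack, by construction, only runs of at least 15 A or T inside the domain. Most still held a shorter run, since only 262 lost domains had no run of 10 or more. Some had a counted run just outside. A run lay within 250 bp of an end in 3681 lost domains, more than the 3532 with one inside. The set is therefore not free of the feature. These 1134 domains were 60.5% of the 1874 wide domains without a run, while 67.8% of the 5209 with a run were lost. Their median fold enrichment was 3.22 and their median width 1221 bp, against 3.25 and 1266 bp for lost domains with a run, and 31.4% against 32.7% passed the study's filter. Values for this set are given beside those of all lost domains in what follows.

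Lost domains lay mostly away from promoters. A TSS of an annotated gene (GENCODE release M21) was within 2 kb of 574 of them (12.3%, 95% interval 11.3 to 13.2%), against 20.7% of all wide domains and 54.9% of kept domains. Wide domains with a K27 peak in OPCs alone had a TSS that near in 19.3%. Over all 36069 listed NSC K27 peaks, narrow ones included, the share was 12.4%, close to that of lost domains. In domains of 1000 to 1500 bp the shares were 11.7% for lost and 36.7% for kept. Of the remainder, 328 lost domains overlapped an exon (7.01%), 1541 lay in an intron (32.9%) and 2235 were intergenic (47.8%). Without A/T runs, 10.6% of lost and 60.2% of kept domains were near a TSS.

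The DNA of lost domains differed from that of kept domains in composition. Median GC content was 40.5% in lost and 46.8% in kept domains. The observed over expected ratio of CG pairs, which is high in CpG islands, had a median of 0.175 in lost and 0.355 in kept domains, and of 0.168 in windows 10 kb downstream of lost domains. Repeat-masked sequence made up a median of 36.9% of lost and 18.1% of kept domains, and 28.6% of the windows downstream of lost domains. This composition was not particular to lost domains. Wide domains with a K27 peak in OPCs alone had medians of 42.8% GC, a CG ratio of 0.197 and 35.2% repeats. The nearest K27 peak of a later stage was a median of 46.6 kb away, within 5 kb for 10.4% of lost domains and within 50 kb for 51.6%.

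Few genes known as Polycomb targets had a lost domain at the promoter. Of 21951 protein-coding genes, 486 (2.21%) had one within 2 kb of a TSS, and 598 had a kept domain there, with 14 genes having both. Among the 486, 414 had no OPC or NFO K27 peak of any width within 2 kb of a TSS, so the whole promoter region was free of called K27 in those cells. Among the rest, 67 had an OPC and 36 an NFO K27 peak there. Lost domains also lay within 2 kb of the TSS of 141 lncRNA genes of 13374.

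Hox genes, the classical PRC2 targets, had no lost domain at a TSS (0 of 39) and a kept domain at 39 of 39. Of 30 Polycomb-regulated developmental regulators, 27 had a kept domain and 1 a lost one, Gata4, a heart and gut factor. The Gata4 domain (chr14:63213344-63214720) had a fold enrichment of 3.40, carried no K4 peak in any stage and lay 4.29 kb from a later K27 peak. Among 43 forkhead genes, 20 had a kept domain and 3 (Foxj2, Foxk2 and Foxp2, the last a regulator of neuronal circuits for vocal learning) a lost one. Of 20 neuron genes 11 had a kept domain at a TSS and 0 a lost one, although Dcx, Map2, Rbfox3 and Syt1 carried one elsewhere in the gene.

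Glial and stem cell genes had few lost domains at a TSS. Of 22 genes for myelin and NFOs, 1 (Ugt8a) had a lost domain at a TSS and 0 a kept one. Of 25 factors that specify or differentiate oligodendrocytes, 1 (Sox6, which holds OPCs back from differentiating) had a lost domain at a TSS and 4 (16.0%, against 2.72% of all protein-coding genes) a kept one. For 16 NSC genes the counts were 1 (Prom1, the stem cell surface protein CD133) and 1. No OPC marker of 15 had a lost domain at a TSS, and neither did any of 14 astrocyte, 12 microglial or 12 endothelial genes. Against the 2.21% of all protein-coding genes, these counts of 0 or 1 lost domain give no ground to set a list apart.

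Large gene families were looked at after the data had been seen. Olfactory receptor genes had a lost domain at 8 of 1135 TSSs (0.705%) and a kept one at 0. Zfp zinc finger genes had one at 11 of 394 (2.79%), against 3 kept. Contactins, neurexins and neuroligins, adhesion proteins of synapses and axons, had one at 2 of 19 (Cntn2 and Nrxn3) and elsewhere in the body of 8 more, with 0 kept. Over all protein-coding genes 1351 of 21951 had one in the body alone, and of those at least 300 kb long, 49.9% had one in the body. Potassium channel genes showed 2 lost and 11 kept of 93.

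**Figure D3:**
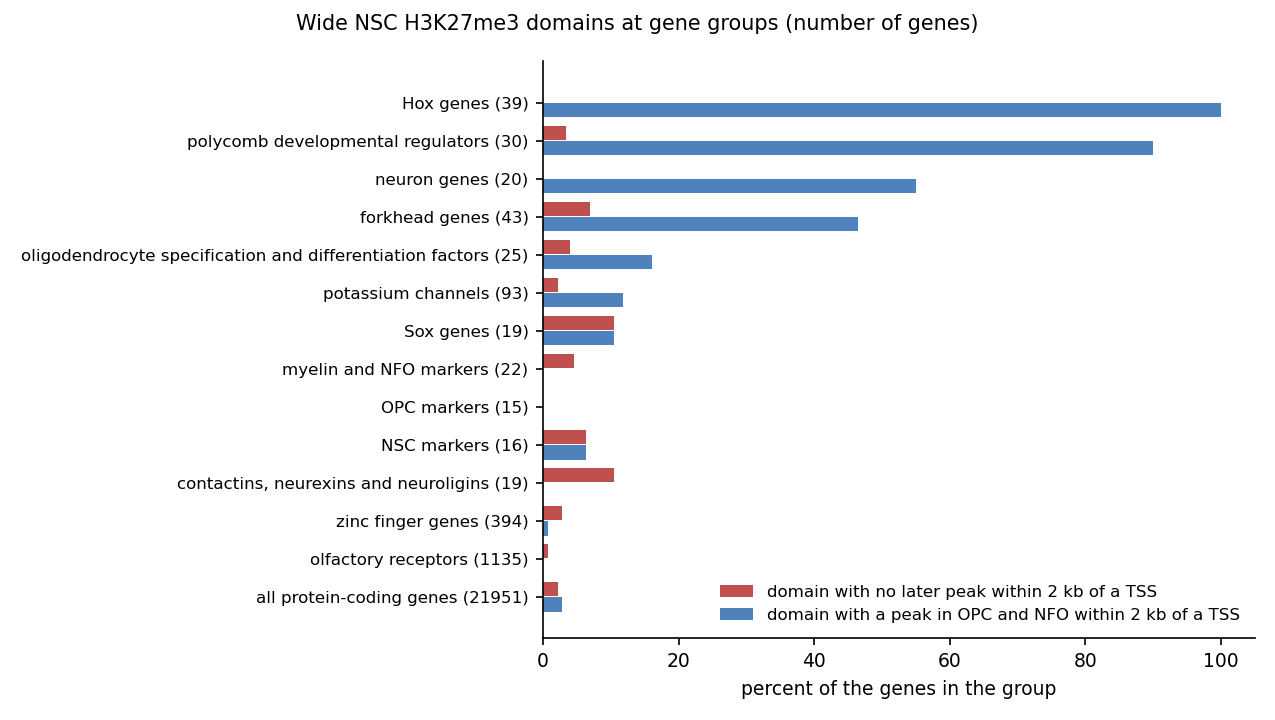
Percent of the genes of each list drawn (x axis, from 0; number of genes in parentheses) with a lost (no later peak) or a kept (peak in OPC and NFO) NSC K27 domain within 2 kb of a TSS. The Hox and developmental regulator lists stand at 39 of 39 and 27 of 30 kept, while among the lists drawn the bars for lost domains reach at most 10.5%, in Sox genes and in contactins, neurexins and neuroligins (2 of 19 each).

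K4 peaks overlapped lost domains most often in NSCs. In NSCs, 872 lost domains (18.6%, 95% interval 17.5 to 19.8%) shared at least 1 bp with a K4 peak, against 28.4% of all wide domains, 64.2% of kept domains and 5.71% of windows 10 kb downstream. In OPCs it was 160 (3.42%, 2.92 to 3.98%), against 9.48% of all wide domains, 35.7% of kept domains and 3.23% downstream. In NFOs it was 325 (6.95%, 6.24 to 7.71%), against 13.5%, 41.4% and 2.42%. In windows 10 kb upstream the OPC share was 2.78%, so the interval for lost domains held the share of the downstream but not of the upstream windows. The OPC list holds 18284 K4 peaks, the NSC list 33292 and the NFO list 21736, so the order of the stages also follows the length of the lists. Kept domains are also wider, and a wider domain can meet a K4 peak at more places. At widths of 1000 to 1500 bp, K4 overlapped 16.4%, 2.98% and 6.04% of lost domains in NSCs, OPCs and NFOs. For kept domains of that width the shares were 44.2%, 21.2% and 28.8%.

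Without A/T runs, K4 overlapped 15.2%, 3.35% and 3.88% of lost domains in NSCs, OPCs and NFOs. A run lay in 69.3% of the NSC K4 peaks on lost domains, in 35.6% of the OPC and in 26.7% of the NFO K4 peaks there. Over all K4 peaks listed these shares were 44.8%, 12.6% and 11.4%. Median K4 fold enrichment on lost domains was 4.05, 5.43 and 3.89 in these cell types, and 4.70, 5.73 and 4.20 over all their listed peaks.

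By pattern over the stages, 3653 lost domains (78.1%) had no K4 peak in any cell type. K4 in NSCs alone was found on 646 (13.8%), in NSCs and a later stage on 226 (4.83%), and in a later stage but not in NSCs on 153 (3.27%). Of these 153, K4 lay in NFOs alone on 118, in OPCs alone on 24 and in both on 11. K4 at all 3 stages marked 95 (2.03%), against 26.6% of kept domains.

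Near a TSS, K4 was more common. Of the 574 lost domains there, K4 was on 47.0%, 17.9% and 18.5% at the same stages. Kept domains near a TSS had 81.6%, 53.4% and 52.6%. No K4 peak in any stage was found on 288 of the 574 (50.2%), K4 in NSCs alone on 151 (26.3%), at all 3 stages on 72 (12.5%), and in a later stage without NSCs on 16 (2.79%). A lost domain with K4 in a later stage was thus found at 135 (23.5%) of these sites, and for kept domains near a TSS the share was 64.7%.

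**Figure D4:**
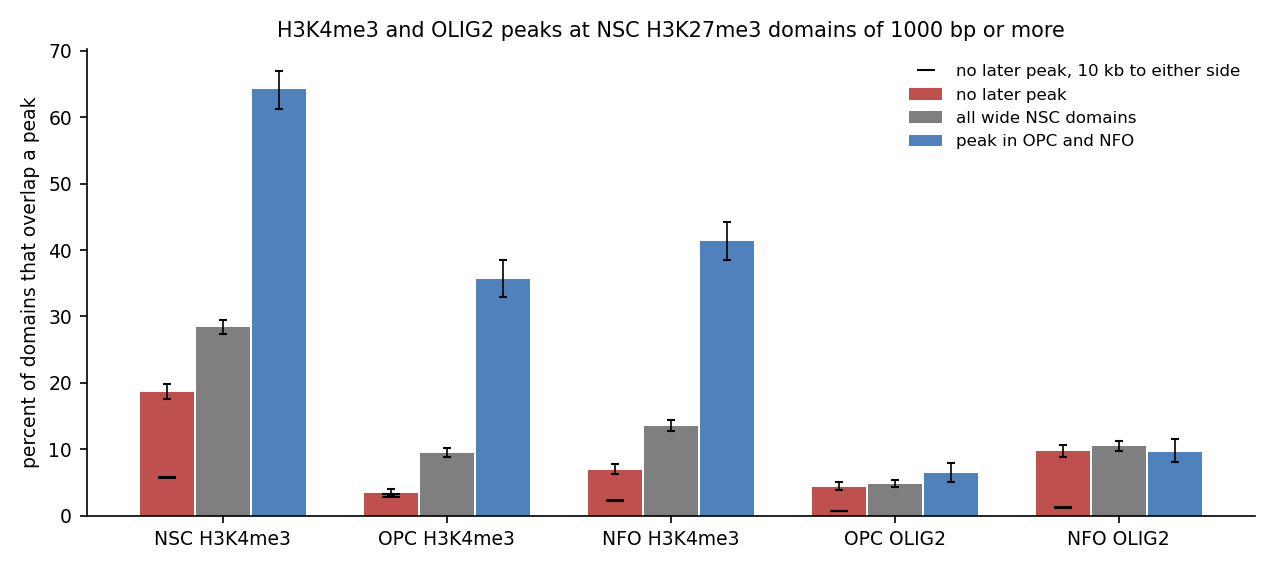
Percent of domains (y axis, from 0) overlapped by a K4 peak in NSCs, OPCs or NFOs and by an OLIG2 peak in OPCs or NFOs, for lost (no later peak), all wide and kept domains, with exact 95% intervals for counting error only; short black lines mark windows 10 kb to either side of lost domains. Widths are not matched, and kept domains are wider. K4 is lower on lost than on kept domains at each stage, while the OLIG2 shares are 4.38% on lost and 6.36% on kept domains in OPCs and 9.68% and 9.66% in NFOs.

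Promoters with a lost domain and K4 in all 3 stages numbered 68 for protein-coding genes, and 9 of the 10 with the highest K27 fold enrichment are described. Fold enrichments of different libraries are each relative to their own input, so K4 values are given side by side and not compared. H60b, a ligand of the NKG2D receptor of killer cells, had the highest K27 value, 7.02, on chr10:22273507-22274721, with K4 fold enrichments of 5.98, 12.9 and 13.7 in NSCs, OPCs and NFOs and no A/T run.

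Fgf12, an intracellular partner of voltage-gated sodium channels, had a K27 value of 5.30 on chr16:28752411-28755200, a domain 2790 bp wide. Its K4 values of 9.44, 20.2 and 17.9, in the same order, were among the highest of these 10 promoters. Ugt8a had 5.0 on chr3:125935761-125937203, with K4 of 5.56, 7.94 and 8.15 and an NFO OLIG2 peak of 17.0. The NSC K4 peak of Ugt8a lay mainly on the promoter side, from 125937062, and reached only the edge of the domain, which ended at 125937203. Of the 2 OPC K4 peaks on the domain, the stronger began at 125937154. A later K27 peak lay 5.0 kb away.

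The other 6 described had lower K27 values. Zfp618, a zinc finger gene, had K27 of 4.84 and K4 of 11.5, 18.2 and 21.2. Its domain also carried an NFO OLIG2 peak of 6.37 with an A/T run in the peak, and a later K27 peak lay 1.51 kb away. Nrg3, a neuregulin that binds ERBB4, had K27 of 4.74 with K4 of 3.46, 5.96 and 3.55, no A/T run, and a later K27 peak 1.75 kb away. Tjp1, the tight junction scaffold ZO-1, had 4.54 with K4 of 8.62, 6.16 and 7.29. Gab3, an adaptor of growth factor receptors, had 4.29 with K4 of 6.62, 4.22 and 4.55. The NSC and OPC K4 peaks of Gab3 began at 75083533 and 75083642, close to the domain's high edge at 75083823. The domains of Slc6a15, a neutral amino acid transporter, and Sorcs3, a sorting receptor of neurons, had K27 values of 4.04 and 4.03. Both had K4 in each stage and later K27 peaks no nearer than 268 kb. At Sorcs3 the OPC K4 peak ended at 48207863 and an NSC one at 48207926, close to the domain's low edge at 48207722. The Sorcs3 domain also carried an OPC OLIG2 peak of 14.3 without an A/T run in the peak. Of the 10, 8 held an A/T run.

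Protein-coding promoters with K4 in a later stage and none in NSCs numbered 13. Sorted by K27 fold enrichment, the first was Defb1, a β-defensin, with K27 of 3.97 on chr8:21777485-21778804 and an NFO K4 peak of 3.31 that was 181 bp wide. The second was Cntn2 (contactin-2, an adhesion protein of the juxtaparanode, where myelinated axons cluster potassium channels), with K27 of 3.88 on chr1:132542446-132544089. Its K4 peak was in OPCs alone, 510 bp wide with a fold enrichment of 3.58. Although it met the rule, a later K27 peak lay only 0.315 kb from it.

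Fxyd1 and Fxyd7, regulators of the sodium pump, shared a domain of 3.21 on chr7:31050720-31052473 with an OPC K4 peak of 5.89 and no K27 peak within 73.3 kb. That of Fxyd1/Fxyd7 and the Cntn2 domain were the only ones of the first 10 without an A/T run. Cthrc1, a secreted protein of collagen-rich tissue, was the only one of the 10 with K4 in both later stages, 4.48 in OPCs and 5.51 in NFOs. At Nrxn3, a presynaptic adhesion protein, the OPC K4 peak of 5.07 was 197 bp wide. Runx1t1, a corepressor, and Tspan8, a tetraspanin, had NFO K4 of 3.17 and 2.96.

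**Figure D5:**
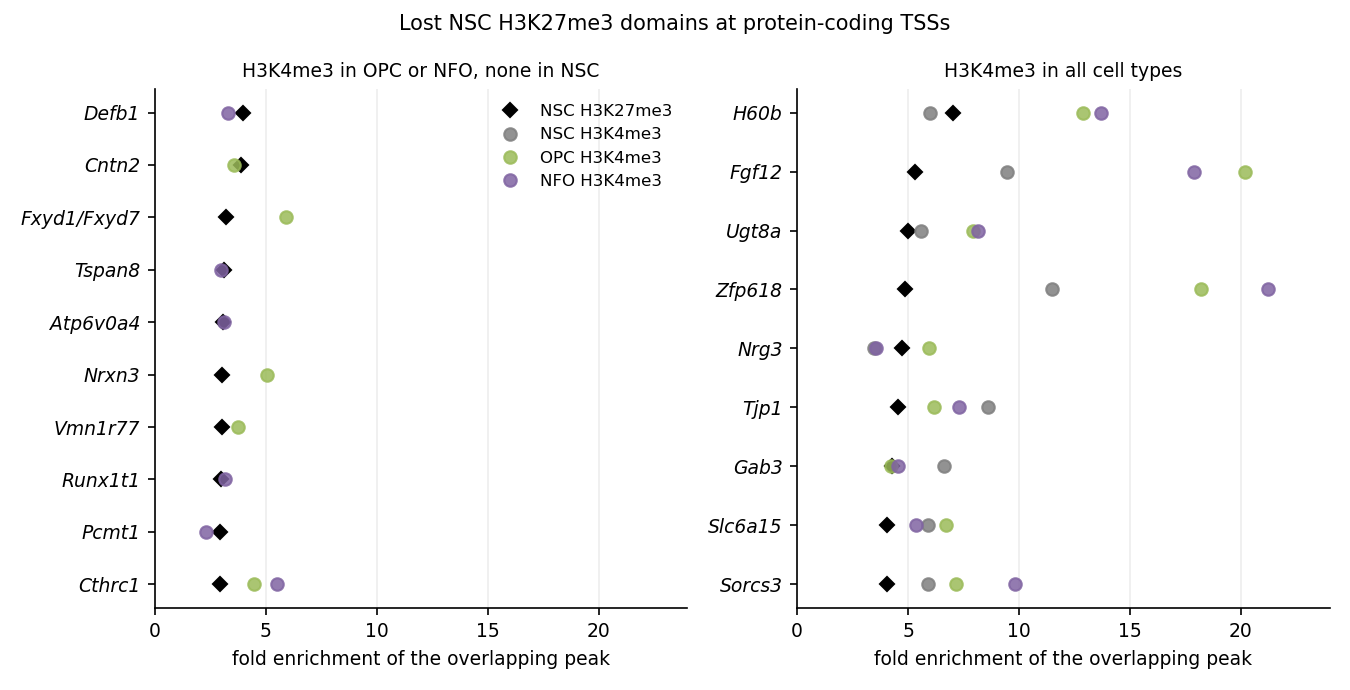
Fold enrichment over input (x axis, 0 to 24) of NSC K27 and of K4 in NSCs, OPCs and NFOs at the named promoters with a lost domain, 1 row per gene and 1 point per library, no point where no peak was called, in a panel for K4 in a later stage alone and one for K4 in all stages. Fgf12 and Zfp618 reach the highest K4 values, and Cntn2 and Fxyd1/Fxyd7 show an OPC K4 peak with none in NSCs.

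By K27 fold enrichment alone, the promoter with the strongest lost domain was that of Dlg2, the synaptic scaffold PSD-93, at 8.12 on chr7:90478909-90479959. It had K4 in NSCs alone, a peak of 4.84 that was 288 bp wide. Next after H60b came Meiob, a meiotic recombination factor, at 6.76, and Ikzf3, a lymphoid zinc finger factor, at 6.28. Kdf1, a factor of the epidermis, stood at 6.20 and had a later K27 peak 0.073 kb away. For Meiob the nearest later K27 peak was 1.45 kb away. Ikzf3 had no K4 in any stage, and Meiob and Kdf1 had it in NSCs alone. These genes of testis, lymphoid cells and skin are named for their rank and not as a theme.

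Of the 10 widest lost domains, 1 lay near a TSS. The widest, 8120 bp on chromosome X (chrX:126768677-126776796), lay 39.1 kb from the nearest TSS, had a fold enrichment of 3.22 and carried no K4 or OLIG2 peak, but a later K27 peak was 0.51 kb away. The next, 6808 bp, lay in an intron of Gm32061 on chromosome 7, with 3.25 and no K4 or OLIG2 peak. The third covered an exon of Plag1, a growth-promoting zinc finger factor, over 6404 bp (chr4:3908828-3915231) with 4.12. A further lost domain with 5.18 lay at the shared promoter of Plag1 and Chchd7 on chr4:3939433-3940926, where K4 was 7.68 in NSCs, 6.70 in OPCs and had no peak in NFOs. Near Gm21750 the domain of 4771 bp had 5.54, the highest fold enrichment of the 10 widest, and was 93.1 kb from a later K27 peak. Another, of 5181 bp at Gm10800 and Gm10801 on chromosome 2, had the lowest enrichment of all lost domains, 1.48. Of these 10, 4 passed the study's filter and 1 was on an unplaced scaffold.

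Over all protein-coding genes, 1351 had a lost domain in the body and none at a TSS, against 486 with one at a TSS. Among lineage genes, Sox6 had 3, the one at a TSS (chr7:115595670-115597190) with 3.78 and a narrow NSC K4 peak of 4.02, and those in introns with 2.53 and 3.59. St18, a zinc finger factor that rises as oligodendrocytes differentiate, had 1 in an intron with 3.14. Sox5 had 1 in an intron with 3.24. Erbb4, the neuregulin receptor, had a pair with 4.70 and 3.11. The annotated span of Fgfr2, a receptor for fibroblast growth factors, was 2960 kb long (chr7:130162451-133123350). That span held 5 lost domains with values from 2.93 to 4.23, the first of them starting at 130874972. Whether these belong to the receptor gene itself or to other genes within the span was not examined. Ugt8a had another domain in an intron (chr3:125879953-125881573) with 3.38 and a weak NFO OLIG2 peak of 3.20.

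Neuronal genes also had them in the body. Dcx, a microtubule protein of migrating neurons, had 5.01 on chrX:143922934-143924054 and an NFO OLIG2 peak of 12.5. Map2, of dendrites, had 4.28 without an A/T run. The AMPA receptor genes Gria1 and Gria3 had 3.16 and 4.41, the latter with an NSC K4 peak of 5.79. Grik1, a kainate receptor gene, had 3.64 with an NFO OLIG2 peak of 8.87. The Rbfox3 domain (2.90) and the Syt1 domain (2.78) lay 0.088 kb and 0.072 kb from a later K27 peak, so their absence from the later lists rests on less than 100 bp. Except for domains of Ugt8a, Dcx and Grik1 and of the annotated Fgfr2 span, none of these list genes had an OLIG2 peak on a lost domain. The OLIG2 peaks on the Ugt8a, Dcx and Grik1 domains each held an A/T run.

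OLIG2 peaks overlapped lost domains at shares near those of wide domains in general. In OPCs, 205 lost domains (4.38%, 95% interval 3.81 to 5.01%) had one, against 4.82% of all wide domains and 6.36% of kept domains. In NFOs, 453 had one (9.68%, 8.85 to 10.6%), against 10.5% of all wide domains and 9.66% of kept domains. Windows 10 kb downstream had 0.641% and 1.35%. Both cell types had a peak on 40 lost domains, and 618 (13.2%) had one in either. Per megabase of sequence, lost domains held 32.8 OPC and 73.7 NFO OLIG2 peaks, kept domains 13.1 and 21.6, and the assembled chromosomes as a whole 2.71 and 6.20. Wide domains with a K27 peak in OPCs alone held more, 35.4 and 98.7, and OLIG2 overlapped 5.18% and 14.7% of them. Any peak sharing 1 bp was counted. Only 125 of the 207 OPC and 262 of the 465 NFO peaks lay wholly inside a lost domain.

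The OLIG2 peaks on lost domains also carried A/T runs. A run lay in 72.0% of the 207 OPC peaks and in 64.5% of the 465 NFO peaks there, against 52.8% and 49.1% of all OLIG2 peaks listed. On lost domains without a run, OLIG2 overlap was 1.94% in OPCs and 5.47% in NFOs, and on all wide domains without one it was 1.87% and 4.75%. The runs had an orientation. In OPC peaks on lost domains a run of A lay on the low side of the peak's centre in 30.9% and a run of T on the high side in 40.1%, while a run of T on the low side and a run of A on the high side were each found in 0.483%. In NFO peaks the shares were 30.3%, 33.8%, 0.215% and 0.215%. All listed OLIG2 peaks had the same orientation, with 26.1% and 26.6% in OPCs against 0.122% and 0.0406%. For OLIG2 the paper describes low-cell ChIP with libraries made by the DNA SMART ChIP-Seq Kit. The cause of the orientation, and any part of the library preparation in it, was not tested.

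E-boxes were about as frequent in these OLIG2 peaks as in all. Some CANNTG lay in 69.6% (144 of 207) of the OPC peaks on lost domains and in 70.4% of all OPC peaks, and in 68.2% and 69.3% for NFOs. The form CAGCTG was found in 9.18% against 13.6% of OPC peaks and in 8.82% against 10.1% of NFO peaks. CATATG was found in 6.28% against 6.20% in OPCs and in 9.46% (95% interval 6.96 to 12.5%) against 6.51% in NFOs. CATCTG or its reverse complement CAGATG lay in 21.7% against 18.9% and in 16.1% against 17.4%. These forms are all CANNTG and overlap with it, and a match is a string of letters and not a bound site.

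The strongest OLIG2 peaks on lost domains were moderate for their lists. In OPCs the highest fold enrichment was 20.8, at a domain of Exosc2, an RNA exosome subunit, where the peak only just overlapped the domain's end, and it was followed by Dnm2, the dynamin of endocytosis, at 17.7. One 27.6 kb from the TSS of Hey2, a Notch effector, had 16.0. In NFOs the highest was 25.2 near Gm26885 and 23.0 at Gm17545 and Rp9. A domain 30.7 kb from the TSS of Etv4, an ETS factor, had 22.5 in NFOs and 13.1 in OPCs, and the domain at Fars2 and Lyrm4 had 15.5 and 16.9. Each of the OLIG2 peaks named here, from Exosc2 to Lyrm4, held an A/T run. Over all listed peaks the maxima were 167 in OPCs and 189 in NFOs, and the medians 8.03 and 8.12, while peaks on lost domains had medians of 7.41 and 8.38. Near a TSS lay 17.6% of the lost domains with OPC OLIG2 and 13.2% of those with NFO OLIG2, against 12.3% of all lost domains.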

How the data were processed

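ChIP-Seq of K27, K4 and OLIG2 was used as lists of called peaks, 1 library per cell type and mark. The authors mapped reads to mm10 with Bowtie2, kept unique alignments, called broad histone peaks with MACS2 and OLIG2 peaks with SPP, and removed blacklisted regions. Whether the deposited lists had already been cleared of such regions was not checked, and 12 lost domains lay on unplaced scaffolds. Versions are not given in the sources used here. For each peak the deposited lists hold the fold enrichment, a ratio over the input, and the −log10 FDR computed by the authors' callers. The NSC K27 list reaches down to a −log10 FDR of 1.03, below the study's filter, and was used whole.

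Overlap meant at least 1 bp. Genes came from GENCODE M21, runs and E-boxes from the GRCm38 genome, promoters from RefSeq. Named genes were the 10 widest domains, the 10 of highest K27 fold enrichment at protein-coding TSSs for each of the K4 patterns described, the 6 strongest OLIG2 peaks per cell type, and list genes with a lost domain. The members and lists were chosen with earlier results of these data known. The run analysis, gene families and printed sequences were added after the peaks had been examined. Domain classes were tested on simulated data. Windows 10 kb away and intervals (SciPy 1.17.1, pandas 2.3.3, pysam 0.24.0, Python 3.11.15) are descriptions. Without replicates no test was run. RIP-Seq and input samples were not used here. A few named genes and sequences of the rule are not reported here.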

Additional observations from a re-analysis of the deposited data

How the results depend on the processing

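Each of the 52 values obtained under another setting was compared with the value in the report. A share was taken to have moved when it fell outside the 95% interval, and a number when it changed by more than 1.5 times. By this measure 34 moved and 18 did not. Raising the minimum width to 2000 bp left 271 lost domains, 24.9% of the wide ones, with 18.8% near a TSS, K4 on 36.2%, 7.75% and 13.7% in NSCs, OPCs and NFOs, and OLIG2 on 3.69% and 10.7% in OPCs and NFOs. The study's filter on every list gave 1659 lost domains, 55.7%, with K4 on 16.6%, 2.59% and 4.34% and OLIG2 on 3.38% and 7.17%. Applied to the K4 and OLIG2 lists alone, it gave K4 on 13.5%, 2.74% and 4.21% and NFO OLIG2 on 8.27%. Leaving out domains with a run of 15 or more A or T, a setting added after the data had been seen, gave 1134 lost domains, 60.5%, with 10.6% near a TSS, K4 on 15.2% in NSCs and 3.88% in NFOs, and OLIG2 on 1.94% and 5.47%. Demanding no later K27 peak within 5 kb lowered the share lost to 59%. Counting marks within 2 kb gave K4 on 21.6%, 7.89% and 9.85% and OLIG2 on 5.75% and 12.3%. A TSS window of 1 kb gave 7.89% near a TSS, and protein-coding genes alone gave 10.2%. Joining NSC peaks with gaps under 1 kb joined none, so it changed no value. All values of that setting are among the 18 that did not move, and they say nothing on stability. The causes of these shifts were not tested, beyond the fewer peaks or domains that each setting keeps by construction. K4 was more frequent on lost domains in NSCs than in OPCs or NFOs under each setting for which K4 was recomputed, which leaves out the 1 kb TSS window and protein-coding genes alone. No paired analysis was possible because each cell type and mark had 1 library. The lists do not give read depth, so a missing later peak cannot be told from one below the reach of the library.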

Other observations

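Lost domains were spread over the genome, with at least 1 in 1992 of 2737 windows of 1 Mb, but a few windows were crowded. The fullest was on chromosome X from 54 to 55 Mb, where all 14 wide domains were lost, 9 of them past the study's filter and none near a TSS. On chromosome 4 from 132 to 133 Mb, a window that includes Oprd1 (the δ-opioid receptor) and Epb41 (a membrane skeleton protein), 12 of 13 wide domains were lost and 5 lay near a TSS. On chromosome 17 from 17 to 18 Mb, around the formyl peptide receptor genes Fpr1, Fpr2 and Fpr3, it was 12 of 16. Not all windows with many lost domains were free of kept ones: on chromosome 15 from 102 to 103 Mb, which holds Hoxc genes, 9 of 20 wide domains were lost. These windows were chosen for their counts, so the counts are a description.

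Among genes, long ones held the most lost domains in their bodies. Cntnap2, a neurexin-like protein of the juxtaparanode, and Tenm2, a teneurin, each held 8 lost and 0 kept domains. Ctnna3 (an α-catenin) and Gpc5 (a glypican) held 7, and Ank3 (ankyrin-G of the axon initial segment), Ctnna2 and Nrxn3 held 6, with 0 kept in each, while Gm20388 held 6 lost and 10 kept at 1.35 lost per Mb. Apart from Gm20388, their densities ran from 3.56 per Mb in Cntnap2 to 9.54 per Mb in Ank3, against 1.72 per Mb over the assembled chromosomes. Of protein-coding genes at least 300 kb long, 283 of 567 (49.9%) held a lost domain, and of those at least 100 kb long 760 of 2492 (30.5%) did. A count per gene follows the length of the gene, and these genes were picked for their counts.

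By chromosome, leaving out Y with 4 of 4 lost, the share of wide domains that were lost ran from 53.7% (117 of 218) on chromosome 19 to 77.3% (167 of 216) on chromosome 16, and was 71.0% (369 of 520) on X. The pools held cells of both sexes for OPCs and NFOs, and the sex of the NSCs was not used here.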
